A study of Mus musculus with 8 samples.

Results

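Fibronectin (Fn1), the tenascins Tnc and Tnxb, the SPARC family genes Sparc, Sparcl1, Smoc1 and Smoc2, and the matricellular genes Postn, Ecm2 and Spon2 were followed in activated muscle stem cells (ASCs), wild-type or mfn2-/-, Mfn2 being the gene of the mitochondrial fusion protein mitofusin 2. These 10 genes were found by their symbols among the 18877 gene symbols of the expression table, and all 10 passed the filter on low values (a mean of at least 10 normalized reads over the 8 libraries), as did 11754 genes in all. Total RNA was sequenced from 4 wild-type and 4 mfn2-/- samples of adult mice. All animals carried a mitochondrial Dendra2 allele switched on by Pax7-CreERT2 and received tamoxifen at 75 mg/kg on 5 daily occasions, and in the mfn2-/- animals the same Cre recombined a floxed Mfn2 allele. The tibialis anterior muscle was injured 2 days after the last dose with 50 uL of 1.2% barium chloride, and ASCs were sorted 2 days after injury as CD34-negative, Dendra2-positive and DAPI-negative cells. Cre, and with it the sort, depends on the activity of the Pax7 promoter, and the labels do not say whether each library came from a single animal, so p-values measure the spread between these samples.

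Fibronectin is a secreted glycoprotein that cells assemble into fibrils through integrins, and it is a classical ligand of muscle stem cells in the injured niche. Matricellular proteins such as tenascin-C, SPARC and periostin are secreted into the same matrix, where they modulate adhesion and signalling more than they bear load, and many are induced by tissue injury. Connective tissue cells are a main source of these proteins in skeletal muscle, and activated muscle stem cells can also make some of them.

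Values are normalized read counts, which the authors obtained by dividing the reads of each library by its size factor. The libraries ranged from 1880464 to 7508215 reads in depth, a single read standing for 0.534 to 2.27 normalized reads, so counting error is largest in wild-type replicate 1 and mfn2-/- replicate 4. The mfn2-/- replicate 4 library stood apart, with 9646 genes detected against 12613 or more in the others. Reads of 4 Y-linked genes, 807 to 2336 per library, were present in mfn2-/- replicates 1 and 2 and in replicates 3 and 4 of the wild-type, and the other libraries held 0, so each group had 2 libraries of each kind, and the kind cannot be told apart from the pairs of replicate numbers. Mfn2 measured 229 ± 19.98 (SD, n = 4) in wild-type and 126 ± 31.4 (SD, n = 4) normalized reads in mfn2-/- ASCs, without overlap, with a log2 change of -0.88 (SE 0.30) that missed the threshold over all genes (limma adjusted p = 0.0848). The sorted cells carried the muscle stem cell factor Pax7 at 662 ± 45.9 normalized reads in the wild-type group and 715 ± 96.1 in mfn2-/- libraries.

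The comparison asked how these matrix genes differ between wild-type and mfn2-/- ASCs. Of the 10 members, 9 were lower in mfn2-/- ASCs at an adjusted p under 0.05, 0 were higher, and Smoc1 was not called. Among all genes tested 6.36% were called lower and 3.99% higher (limma with Benjamini-Hochberg adjustment). The members were chosen with earlier results of these data known, so the counts beside these shares are a description and not a test of the list. The wild-type and mfn2-/- libraries did not overlap for these 9 members, where 12.2% of all genes tested had every mfn2-/- library below every wild-type library (7.36% the reverse, 19.5% either way). Called in either direction were 10.4%. The median log2 change of the members was -3.74, beside -0.16 for all genes tested. Single members ran from -8.45 for Smoc2 to -0.33 for Smoc1. In a bulk sample, fewer cells of a type and less RNA per cell cannot be told apart.

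**Figure D1:**
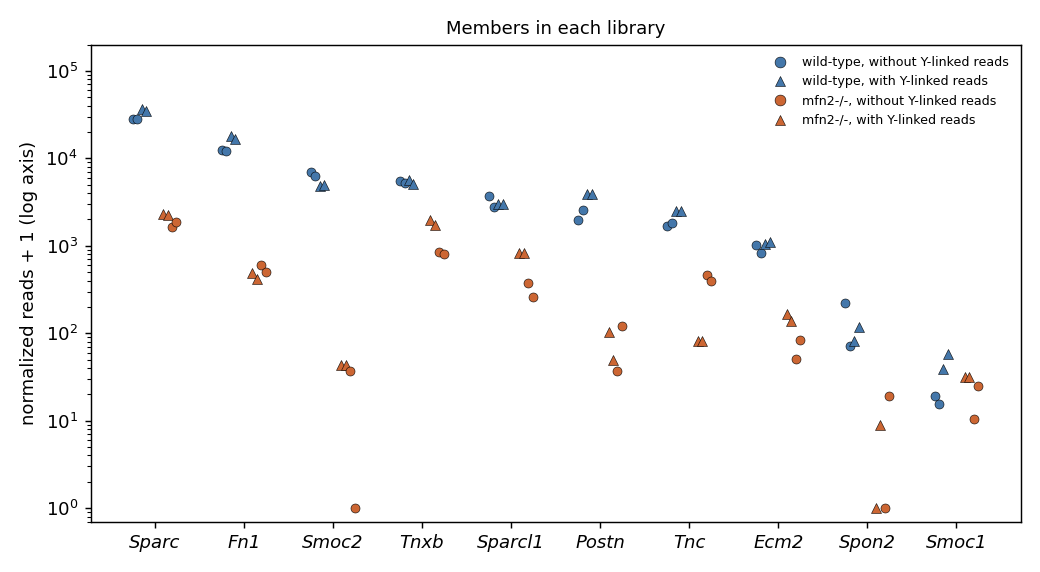
Normalized reads plus 1 (log axis) of the 10 members in each library, with wild-type in blue and mfn2-/- in orange, and triangles for libraries with Y-linked reads. Each point is 1 library, and the colours overlap for Smoc1 alone, while Smoc2 was at 0 in mfn2-/- replicate 4.

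Fn1, the fibril-forming adhesive glycoprotein (GRCm38 chromosome 1, 71585520 to 71653200, minus strand), fell 29.5-fold. Its wild-type libraries measured 12388, 12160, 17957 and 16513 normalized reads in replicates 1 to 4, and the mfn2-/- libraries 487, 412, 604 and 500.3. Even the highest mfn2-/- library was far below the lowest wild-type library, and the spread was small in both groups. The log2 change was -4.87 (standard error 0.20 and adjusted p = 3.03e-09 by limma), and 1.36% of all genes tested had a lower value.

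The tenascins are large multidomain glycoproteins, of which tenascin-C loosens cell adhesion and appears after injury, while tenascin-X is bound to collagen fibrils of stable connective tissue. Tnc (chromosome 4, 63959785 to 64047015, minus strand) gave 1681, 1837, 2525 and 2503 normalized reads in the wild-type replicates and 81.3, 79.8, 462 and 392 in mfn2-/- replicates 1 to 4. All mfn2-/- values were lower, but they formed a low pair (replicates 1 and 2) and a pair about 5.30-fold above it (replicates 3 and 4). The log2 change over all libraries was -3.49 (standard error 0.51 and adjusted p = 0.000775 by limma). Tnxb (chromosome 17, 34670535 to 34719815, plus strand) was the least affected of the called members. It measured 5474, 5293, 5617 and 5079.9 normalized reads in wild-type, the tightest wild-type values of the 10 genes with a coefficient of variation of 4.33%. The mfn2-/- libraries gave 1999, 1749.96, 840.1 and 812. Here the pair of replicates 1 and 2 was the higher of the pairs, the reverse of Tnc. The log2 change was -2.11 (standard error 0.28 and adjusted p = 0.000388 by limma), a 3.97-fold lower mean.

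The SPARC family comprises secreted calcium-binding proteins. Sparc, which binds collagen and takes part in its deposition (chromosome 11, 55394500 to 55423183, minus strand), was the most abundant member per length. It gave 28078, 28059.8, 36389.8 and 34811 normalized reads in the wild-type group and 2302, 2266, 1647 and 1862 in the mfn2-/- ones. These 4 low values lay close together, and the lowest, 1647, was still above every mfn2-/- value of the other members except Tnxb. Its log2 change of -3.98 (standard error 0.20 and adjusted p = 3.5e-08 by limma) corresponded to a 15.8-fold lower mean. Sparcl1, the related protein also known as hevin (chromosome 5, 104079111 to 104113733, minus strand), measured 3677, 2795, 3027 and 3036 in wild-type and 833, 831, 369.9 and 257 in mfn2-/- libraries. The groups were separate, and within the mfn2-/- group replicates 1 and 2 were above replicates 3 and 4, as for Tnxb. Sparcl1 fell by 2.62 on the log2 scale (standard error 0.33 and adjusted p = 0.000279 by limma).

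The modular calcium-binding proteins encoded by Smoc1 and Smoc2 share the SPARC-type domain and behaved differently from each other. Smoc2 (chromosome 17, 14279506 to 14404790, plus strand) gave 6989, 6343, 4875 and 4906 normalized reads in the wild-type group and 42.7, 42.7, 36.1 and 0 in the mfn2-/- ones. The mean was 190.3-fold lower, the log2 change was -8.45 (standard error 0.94 and adjusted p = 8.19e-05 by limma), and only 0.0596% of all genes tested had a lower value. The 0 in mfn2-/- replicate 4 is a count of 0 in the second shallowest library. There 3 reads are 5.50 normalized reads, below the 36.1 to 42.7 of the other mfn2-/- libraries, which had 64, 54 and 49 reads. Without that library the log2 change of Smoc2 was -7.11. Smoc1 (chromosome 12, 81026808 to 81186414, plus strand) was expressed weakly in both groups. Its values were 18.2, 14.5, 37.6 and 56.6 normalized reads in the wild-type group and 30.7, 30.8, 9.58 and 23.8 in the mfn2-/- ones, from 8 to 106 reads, and the groups overlapped. The log2 change of -0.33 (standard error 0.89 and adjusted p = 0.853 by limma) had a 95% interval from -2.25 to 1.58. A change of either sign within these limits is therefore not excluded. The sign of Smoc1 turned with quantile normalization (0.20) and without mfn2-/- replicate 3 (0.036) or wild-type replicate 4 (0.0074).

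Periostin, encoded by Postn (chromosome 3, 54361109 to 54391037, plus strand), is a fasciclin-domain protein that fibroblasts secrete and that helps to cross-link collagen. Postn gave 1951, 2601, 3958 and 3936 normalized reads in the wild-type group and 102, 48.2, 36.1 and 121 in the mfn2-/- ones. The wild-type values differed by replicate more than those of Sparc, yet the lowest of them was above every mfn2-/- value. With a 40.5-fold lower mean and a log2 change of -5.43 (standard error 0.38 and adjusted p = 8.96e-07 by limma), it fell without overlap.

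Ecm2 and Spon2 encode secreted proteins and had the lowest wild-type means per length after Smoc1. Ecm2, a leucine-rich matrix protein (chromosome 13, 49504810 to 49532789, plus strand), gave 1012, 822, 1050.2 and 1099 normalized reads in the wild-type group and 166, 137, 49.4 and 82.5 in the mfn2-/- ones. It fell by 3.32 on the log2 scale (standard error 0.34 and adjusted p = 4.25e-05 by limma) without overlap. Spon2, the mindin member of the spondin family (chromosome 5, 33198184 to 33218455, minus strand), was weakly expressed. Its wild-type libraries held 223, 70.5, 80.8 and 115 normalized reads, while the mfn2-/- libraries held 0, 10, 0 and 10 reads, or 0, 7.90, 0 and 18.3 normalized reads. The log2 change of Spon2 was -4.94 (standard error 1.16 and adjusted p = 0.0166 by limma). Its call was lost with a pseudocount of 0.1 (adjusted p = 0.0577) and without wild-type replicate 3 (0.0503) or 4 (0.0562), and its fitted change depends on the pseudocount.

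For each of the 9 called members the exact permutation test over the 70 arrangements of 4 against 4 libraries gave p = 0.0286, the smallest value this design allows, and for Smoc1 it gave p = 0.600 (two-sided). Any gene whose groups do not overlap gives this smallest value, as 19.5% of all genes tested did, so it only restates the lack of overlap. The calls of the 8 members other than Smoc1 and Spon2 held in all 21 alternatives run, those without mfn2-/- replicate 4 among them. The annotation places other transcripts over exons of Fn1 (Apol7d), Tnc (8030451A03Rik) and Tnxb (Cyp21a2-ps), and whether strand was used in counting is not given in the sources used here.

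**Figure D2:**
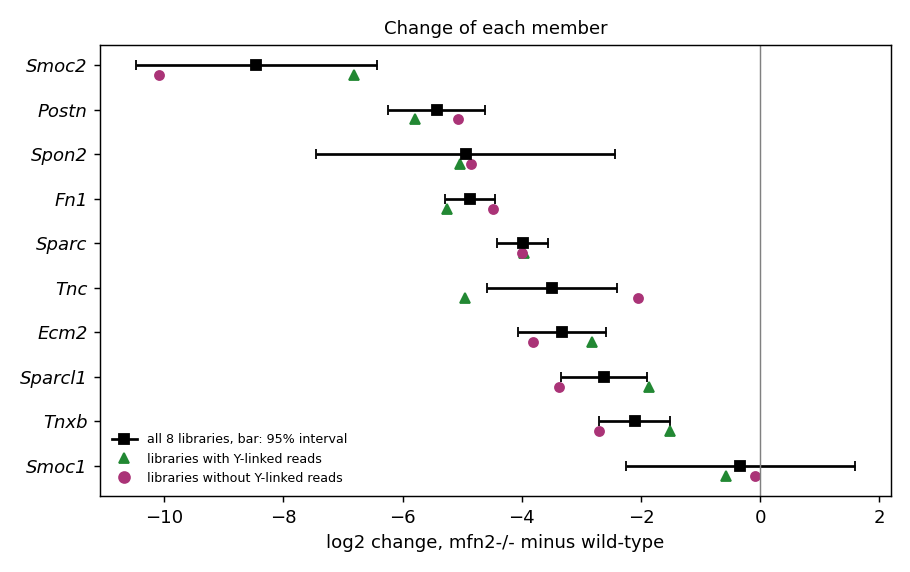
Log2 change (mfn2-/- minus wild-type) of each member, with the squares and bars giving the estimate over all 8 libraries and its 95% interval, and the triangles and circles the change within libraries with and without Y-linked reads. The interval of Smoc1 spans 0, those of the other members lie below it, and the symbols of Tnc lie farther apart than those of Sparc.

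For 5 of the 10 members (Ecm2, Postn, Sparc, Tnc and Tnxb) RefSeq (GRCm38.p6) gave the bases before the transcription start. The windows of Ecm2 and Sparc are not printed. RefSeq lists another start for Postn and for Tnc, whose windows are not shown. Those of Postn, with a larger fall, and of Tnc and Tnxb, which differed in opposite ways between library pairs, are printed 5′ to 3′ on the strand of the gene over the 250 bases before the start. Capitals mark matches on either strand to TATAAA (the TATA box), to CCAAT (the CCAAT box), to GGGCGG (the GC box), to TGACTCA (the AP-1 site), to CAGCTG (an E-box), to ACGTG (a core of the hypoxia response element) or GCGTG (its other form), to CAGAC (the SMAD element) and to GGAATG (the TEAD element).
Postn, chr3:54360857-54361106, plus strand: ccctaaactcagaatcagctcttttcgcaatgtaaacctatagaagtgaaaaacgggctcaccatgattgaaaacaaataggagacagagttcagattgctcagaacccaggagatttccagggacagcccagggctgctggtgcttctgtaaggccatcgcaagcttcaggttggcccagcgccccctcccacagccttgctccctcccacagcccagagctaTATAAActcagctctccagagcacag
Tnc, chr4:64047016-64047265, minus strand: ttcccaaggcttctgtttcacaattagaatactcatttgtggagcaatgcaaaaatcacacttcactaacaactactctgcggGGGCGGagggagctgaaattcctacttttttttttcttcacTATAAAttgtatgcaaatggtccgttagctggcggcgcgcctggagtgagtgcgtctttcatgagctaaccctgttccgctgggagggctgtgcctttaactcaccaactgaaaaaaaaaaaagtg
Tnxb, chr17:34670285-34670534, plus strand: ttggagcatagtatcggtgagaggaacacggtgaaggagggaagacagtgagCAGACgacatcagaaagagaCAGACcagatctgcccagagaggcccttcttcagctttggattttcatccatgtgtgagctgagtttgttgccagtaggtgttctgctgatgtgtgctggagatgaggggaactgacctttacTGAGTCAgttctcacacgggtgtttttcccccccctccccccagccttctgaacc
The window of Postn held a TATAAA whose first base lay 26 bases before the start, and TATAAA occurred in 12.4% of the 32851 windows of all genes. That of Tnc held TATAAA 126 bases and GGGCGG 167 bases before the start, the latter found in 32.7% of all windows. The window of Tnxb held TGACTCA on the opposite strand 55 bases before the start, a match that 4.46% of all windows had, and CAGAC at 2 places, which occurred in 42.2%. Neither form of the hypoxia core was matched in these 3 windows, and 16.6% (ACGTG) and 28.2% (GCGTG) of all windows held one. These are matches of letters and were not tested as binding sites.

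Whether the changes were alike in the library kinds was examined because mfn2-/- replicates 1 and 2 differed from replicates 3 and 4 for several members. The fall of Tnc was -4.95 in libraries with Y-linked reads and -2.04 in those without. That of Tnxb was -1.51 and -2.70, and that of Sparcl1 was -1.86 and -3.38. Thus Tnc fell more, and Tnxb and Sparcl1 less, in the libraries with Y-linked reads. The interaction of genotype with library kind, a test chosen after the data had been seen, was called by limma for 1.47% of all genes tested (1.49% by edgeR) and for 3 of the 10 members. It was -2.90 for Tnc (SE 0.28, adjusted p = 0.00125), 1.19 for Tnxb (SE 0.19, adjusted p = 0.0142) and 1.51 for Sparcl1 (SE 0.30, adjusted p = 0.0378).

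In the mfn2-/- group the mean of Tnc was 80.6 normalized reads in the libraries with Y-linked reads and 427 in those without, whereas in wild-type the libraries with Y-linked reads were 1.43-fold higher. Tnxb measured 1874 and 826 in the mfn2-/- libraries with and without Y-linked reads, and 5348 and 5384 in the wild-type ones. For Sparcl1 these means were 832 and 313 in mfn2-/- and 3031 and 3236 in wild-type ASCs. Sparc had nearly the same change in both kinds, with -3.96 and -4.00 (interaction 0.040, SE 0.15, limma adjusted p = 0.931). Fn1 fell by 5.26 and by 4.48 on the log2 scale, a difference that did not pass (limma adjusted p = 0.132). With 2 libraries per cell these tests are fragile. The Tnc difference was called in all 9 alternatives (each library left out, and edgeR), with an adjusted p of at most 0.0259. The Tnxb difference was called in 3 of 9 (adjusted p up to 0.120) and the Sparcl1 difference in 2 of 9 (up to 0.232). Among the other lists examined, the interaction was also called for Spon1 (-1.96 with and -0.20 without Y-linked reads), Ctgf (-2.73 and -0.97), Col3a1, Gsn, Acta2 and Egr2, for which the alternatives were not run.

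**Figure D3:**
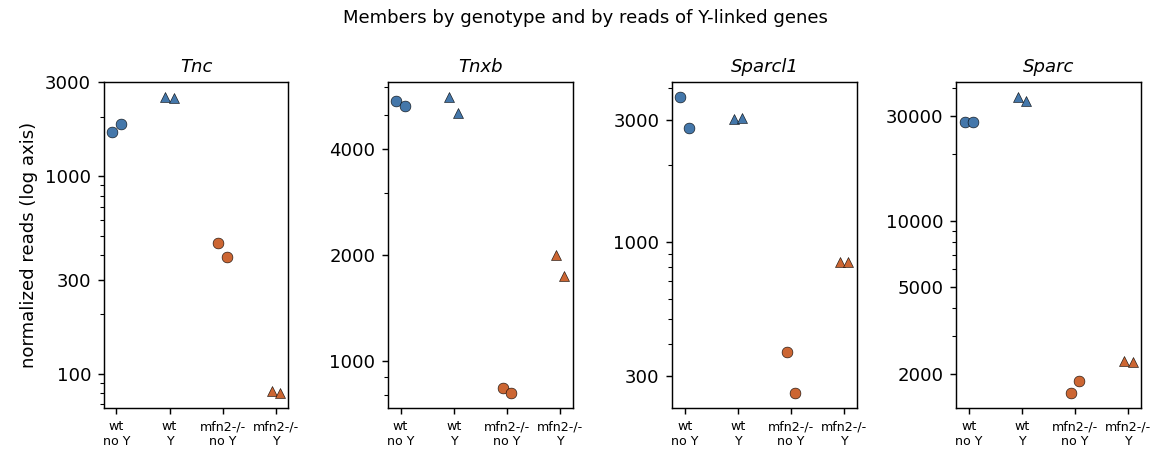
Normalized reads (log axes with a separate range in each panel) of Tnc, Tnxb, Sparcl1 and Sparc by genotype and by the presence (Y) or absence (no Y) of Y-linked reads, where each point is 1 library. In the mfn2-/- group Tnc was lower in the libraries with Y-linked reads, Tnxb and Sparcl1 were higher there, and Sparc differed little.

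The pattern over the 8 libraries was also compared with that of the 5584 other genes with a mean of at least 100 normalized reads, as a description, since all these genes share the same libraries and most of the variation is the difference between groups. Tnc was most like Txndc5 (Pearson r = 0.997), Ctgf, which encodes connective tissue growth factor (0.994), and Vcan, which encodes the proteoglycan versican (0.983). Tnxb was most like Ccdc3, Fbln7 and Sparcl1 (0.996, 0.994 and 0.993). Sparc was most like the collagen genes Col6a2 and Col1a2 (0.999 each) and Fbn2 (0.999). Fn1 was most like Pappa2, Fstl1 and Col6a3 (0.998, 0.997 and 0.997), and Postn most like Emid2, Fkbp9 and Fbn1 (0.995, 0.990 and 0.990). Smoc2 was most like Ptgs2, C1s and Podn (0.998, 0.995 and 0.995), Sparcl1 most like Col5a3, Pamr1 and Ccdc3 (0.997, 0.996 and 0.994), and Ecm2 most like Olfml3, Sulf2 and Tnmd (0.995, 0.993 and 0.991). The likeness of Spon2 to Cplx2, Lrrn4cl and Col14a1 was 0.979, 0.977 and 0.974. Between members, r was 0.99 for Tnxb with Sparcl1 and 0.67 for Tnc with either of them, and that of Smoc1 with any other member was at most 0.42.

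Levels were compared between genes per length, as normalized reads per kilobase of annotated exon. In wild-type ASCs Sparc led with 8404 ± 1160.5 (SD, n = 4), followed by Fn1 with 1263 ± 250.4, Sparcl1 with 1067 ± 129, Smoc2 with 831 ± 152 and Tnxb with 439.5 ± 19.03. Postn (358 ± 115), Tnc (275 ± 56.7), Ecm2 (175 ± 21.3), Spon2 (41.5 ± 23.6) and Smoc1 (9.08 ± 5.56) came after them. Among neighbours in this order, Fn1, Sparcl1 and Smoc2 overlapped, as did Tnxb, Postn and Tnc. In mfn2-/- ASCs the order per kilobase was Sparc (533 ± 84.0), Sparcl1 (195 ± 103), Tnxb (111 ± 50.3), Fn1 (42.9 ± 6.73), Tnc (32.7 ± 26.0), Ecm2 (19.1 ± 9.25), Postn (8.83 ± 4.72), Smoc1 (6.79 ± 2.85), Smoc2 (4.37 ± 2.95) and Spon2 (2.22 ± 2.95). Smoc2 went from place 4 to 9 and Tnxb from place 5 to 3, and only Sparc from Sparcl1 and Tnxb from Fn1 were separated as neighbours in the mfn2-/- group.

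The members together took 1.44, 1.42, 1.86 and 1.80% of all normalized reads in the wild-type libraries and 0.146, 0.139, 0.109 and 0.0978% in the mfn2-/- libraries. The summed share was thus 13.3-fold lower, without overlap. Within that sum the makeup differed, since Tnxb went from 8.05% ± 0.948 (SD, n = 4) to 26.2% ± 6.87 (SD, n = 4) and Sparcl1 from 4.71% ± 0.886 to 11.01% ± 4.00. Smoc2 went from 8.80% ± 2.53 to 0.589% ± 0.400, and Fn1 from 21.8% ± 1.85 to 10.6% ± 3.57. Sparc held the largest part in both groups, with 47.2% ± 1.26 and 41.2% ± 3.24, and its libraries overlapped.

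Markers of connective tissue cells moved with the members. Of 10 fibroadipogenic and fibroblast markers, 9 were called lower and 0 higher, and their summed share was 4.58 to 6.23% of normalized reads in wild-type and 0.127 to 0.231% in mfn2-/- libraries. All 8 tenocyte markers were called lower, with sums of 0.864 to 1.44% and 0.00736 to 0.00986%. Among the defining genes, Pdgfra, the receptor that marks fibroadipogenic progenitors, went from 2531 ± 695 to 31.9 ± 26.5 normalized reads. The tendon gene Chad was the only tenocyte marker at 3 reads or fewer in every mfn2-/- library. Scx, the tenocyte marker with the smallest change, went from 173 ± 29.5 to 39.7 ± 37.4 normalized reads (log2 change -2.68, limma adjusted p = 0.0369). Col1a1, the fibroblast collagen with the highest mean, had a log2 change of -8.36. Ly6a was the fibroblast marker that was not called (11.6 ± 11.4 and 34.4 ± 18.0). The part of these cells in the fall of the members was not tested.

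Muscle stem cell markers took 0.174 to 0.201% of normalized reads in wild-type and 0.264 to 0.305% in mfn2-/- libraries, and 3 of 8 were called higher (Myod1, Vcam1 and Cd82) and 0 lower. Mural cell markers summed to 0.0907 to 0.124% and 0.0604 to 0.0961%, with 2 of 7 tested called lower (Pdgfrb and Cspg4) and 1 higher (Abcc9). Endothelial markers summed to 0.0199 to 0.0347% and 0.0288 to 0.0397%, with 0 of 8 called. Schwann cell markers summed to 0.0424 to 0.0522% and 0.0462 to 0.0774%, with 1 of 6 called higher (Egr2) and 0 lower. Macrophage and leukocyte markers stayed at or below 0.0042% in all 8 libraries, with 0 of 5 called.

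**Figure D4:**
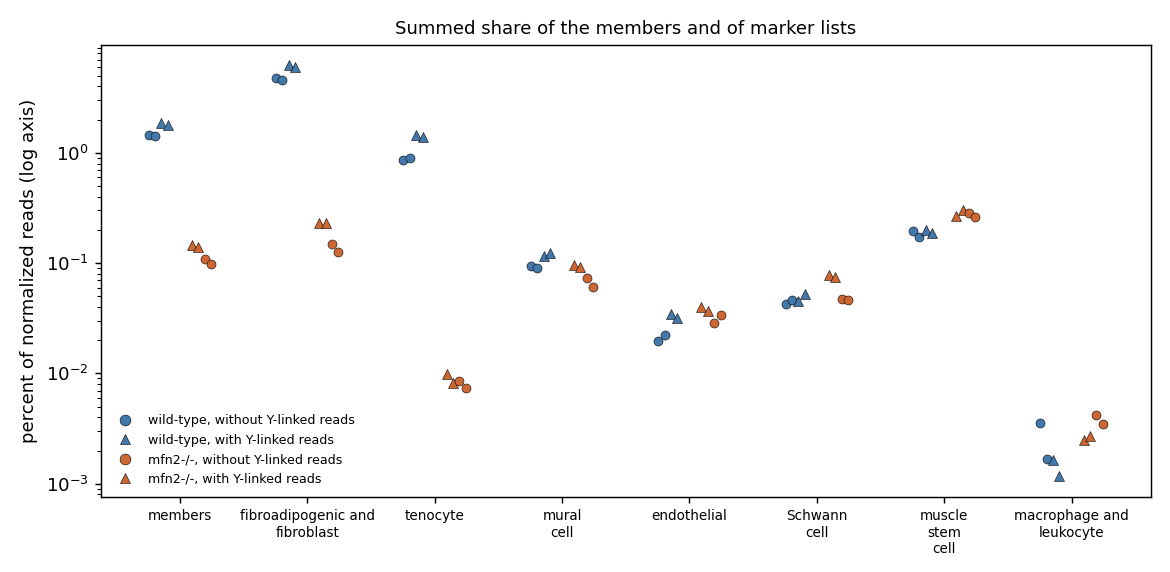
Summed share of normalized reads (percent, log axis) of the 10 members and of 7 marker lists in each library, with the colours for genotype and triangles for libraries with Y-linked reads. The members and the fibroblast and tenocyte lists lay lower in all 4 mfn2-/- libraries, whereas the mural, endothelial, Schwann and leukocyte sums overlapped between groups.

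The fibroblast markers called lower had a wide range of folds, and the folds of the called members lay within their range. Smoc1, which was not called, had a 1.34-fold lower mean, outside that range. The collagen genes Col1a1 and Col1a2, which made up most of the marker sum in wild-type ASCs, were 317-fold and 209.6-fold lower, and Lum and Dcn, which encode the proteoglycans lumican and decorin, were 252-fold and 116-fold lower. Col3a1 was 18.6-fold lower. Gsn, which encodes the actin-severing protein gelsolin, was 3.34-fold lower (17685 ± 5597 and 5295 ± 1318 normalized reads) and made up most of the sum in mfn2-/- ASCs. The fold of Smoc2, 190.3, was thus below those of Col1a1, Col1a2 and Lum, and that of Tnxb, 3.97, was close to that of Gsn. These folds are set side by side as a description, and no difference between genes was tested.

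Among the family relatives of the members, 4 of 7 tested genes were called lower and 0 higher, with a median log2 change of -2.93. Fstl1, a SPARC-related glycoprotein, fell from 3506 ± 473 to 580.1 ± 43.5 normalized reads (log2 change -2.59). Tgfbi, the fasciclin-domain relative of periostin, fell by 4.12 on the log2 scale. The SPARC-related proteoglycan genes Spock2 (-2.93) and Spock3 (-4.06, with 0 in mfn2-/- replicates 3 and 4) were also called lower. Spon1, the relative of Spon2, measured 848 ± 143 and 455 ± 259 normalized reads and was not called (limma adjusted p = 0.0726), and Spock1 was not called either (log2 change 1.25, adjusted p = 0.681).

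Of the CCN and other matricellular genes, 3 of 7 tested were lower and 0 higher (median -1.17). Cyr61 and Ctgf, which encode the secreted proteins CCN1 and CCN2, fell from 6313 ± 386 to 2807 ± 145 normalized reads (log2 change -1.17) and from 4100.3 ± 715 to 1250.7 ± 626 (-1.85). Nov (CCN3) was called lower with -5.46. Wisp1 (-1.05, limma adjusted p = 0.0711) and Spp1, which encodes osteopontin (-0.41, adjusted p = 0.901), were not called. Nov was at 0 in mfn2-/- replicates 1 and 4, so its fitted change depends on the pseudocount.

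The receptors went in both directions, with 4 of 17 tested called lower, 2 higher and a median of -0.68. Sdc4, a heparan sulfate receptor for fibronectin on muscle stem cells, rose from 4271 ± 1529 to 17473 ± 3953 normalized reads (2.08 on the log2 scale, adjusted p = 0.000317 by limma). Cd44, the hyaluronan receptor, rose by a log2 change of 1.00 (adjusted p = 0.0347). The integrin genes Itgb1 (-0.68), Itgb5 (-2.29) and Itga9 (-4.19, with 0 in mfn2-/- replicate 4) and the syndecan gene Sdc3 (-2.03) were called lower. Itgav and Itga5, whose products form receptors for fibronectin, were not called (-0.51 and -0.12, limma adjusted p = 0.129 and 0.856). The calls in this list depended on settings, with 1 to 2 genes called higher and 2 to 6 lower when single libraries were left out. Cd44 and Itgb1 had the smallest called changes of the list.

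Of the 10 genes for proteins that process or cross-link this matrix, 6 were lower and 1 was higher (median -1.65). The gelatinase gene Mmp2 fell from 5121 ± 189 to 728 ± 104.5 normalized reads (log2 change -2.82), and Pcolce, an enhancer of procollagen cleavage, by 5.43 on the log2 scale. Bmp1, the procollagen protease that periostin binds, and Lox, the collagen cross-linking oxidase, fell by 1.68 and by 1.62. Htra1, a secreted protease that cleaves fibronectin, measured 1026 ± 161 normalized reads in wild-type and 263, 153, 69.3 and 0 in mfn2-/- replicates 1 to 4, an 8.46-fold lower mean. Its log2 change of -4.63 had a standard error of 1.26 (adjusted p = 0.0338 by limma), with -2.26 in libraries with and -7.00 in libraries without Y-linked reads, and depends on the pseudocount through the 0. Adamts4, an aggrecanase, was called higher (492 ± 190.5 and 1299 ± 510.1, log2 change 1.40, limma adjusted p = 0.0127). Tgm2 (0.27) and Furin (0.45) were not called.

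**Figure D5:**
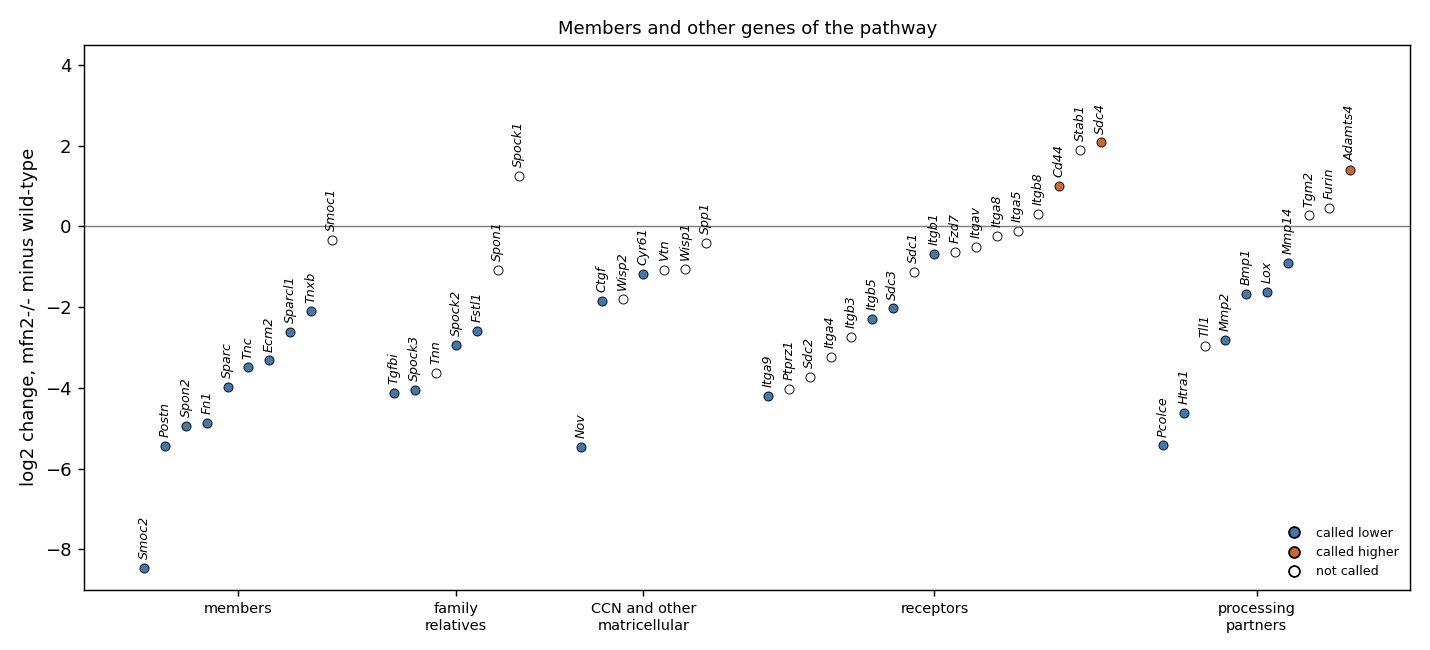
Log2 change (mfn2-/- minus wild-type) of every tested gene of the member list and of 4 other lists, ordered within each list, with blue for genes called lower, orange for genes called higher and white for genes not called. The members and their relatives lie mostly below 0, and Sdc4, Cd44 and Adamts4 are the genes called higher.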

How the data were processed

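Total RNA libraries of sorted ASCs (4 wild-type, 4 mfn2-/-) were made with a stranded low-input kit. The submitters' processing notes name Trim Galore, HISAT2, featureCounts, DESeq2 and the build mm9, without versions. The authors deposited 1 signal value per gene, its reads divided by 1 size factor per library, and 100% of them were whole multiples of 1 step (within 0.01 of a read), so whole reads were recovered for depth and count tests. Genes with a mean of at least 10 (11754) were tested with limma 3.58.1 (R 4.3.3) with a mean-variance trend, after adding 1 and taking log2, and Benjamini-Hochberg adjustment, called under 0.05. Changes are differences of group means on that scale, and the added 1 shrinks those of weak genes. Where single mfn2-/- libraries held 0, as for Smoc2, Spon2, Nov and Htra1, the change was larger than the ratio of the mean normalized reads. The fits were also run on simulated counts with known changes. No 2 replicates agreed within sampling noise (chi-square per degree of freedom at least 11.7).

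Members and gene lists were chosen with earlier results of these data known. All members were named, then Mfn2, then the called genes of each list by mean (at most 6, plus 2 not called), and the 3 genes most correlated with each called member. Pdgfra, Col1a1, Col1a2, Col3a1, Dcn, Lum, Gsn, Acta2, Ly6a, Myod1, Vcam1, Cd82, Pdgfrb, Cspg4, Abcc9, Egr2, Pax7, Chad and Scx were named after their values were seen. Positions and exon lengths are from GENCODE M21 (GRCm38), since the table has no coordinates and mm9 is another build. Intervals are limma 95% intervals. Alternatives were other pseudocounts, filters and scalings, a replicate block, library weights, no trend, Y-linked reads as a term, each library left out, edgeR 4.0.16 and DESeq2 1.42.0. Tables were made in Python 3.11.15.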

Additional observations from a re-analysis of the deposited data

Results flagged for a closer look

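Members whose change differed between library kinds were Tnc, by -2.90 on the log2 scale (the change in libraries with Y-linked reads minus that in libraries without, limma adjusted p = 0.00125), Tnxb, by 1.19 (adjusted p = 0.0142), and Sparcl1, by 1.51 (adjusted p = 0.0378). In each case the 4 cells held 2 libraries. Smoc2 was 0 in mfn2-/- replicate 4 against 36.1 to 42.7 normalized reads in the other mfn2-/- libraries, a gap of 0.846 of the whole range, past the 95% limit of Dixon's ratio for 4 values. It was the single such value in 24 groups, where chance flags about 1 in 20.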

How the results depend on the processing

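Low counts limit Smoc1, Smoc2 and Spon2, with as few as 8, 0 and 0 reads in a library, and Smoc2 gave -7.11 without mfn2-/- replicate 4. The counts of 0 did not follow depth for Spon2. It had 0 reads in mfn2-/- replicates 1 and 3, and 10 in the shallower replicate 4. The median change of all genes was -0.16 as deposited, and 0.13 with quantile normalization, against medians of -3.74 and -3.85 for the members, and all 10 members kept their sign under each scaling except Smoc1, which gave 0.20 with quantile normalization and -0.62 to 0.036 with single libraries left out. Spon2 lost its call with a pseudocount of 0.1 (-6.64) and without wild-type replicate 3 or 4, and gave -5.74 to -4.32 over the fits without 1 library. These 3 alternatives left 8 members called lower, the other 18 gave 9, and 0 were higher in any of the 21. Log2 changes of the other called members ran over the alternatives from -5.15 to -4.77 for Fn1, from -4.19 to -3.89 for Sparc, from -4.45 to -3.05 for Tnc, from -2.34 to -1.74 for Tnxb, from -2.86 to -2.08 for Sparcl1, from -5.97 to -5.13 for Postn, from -9.31 to -7.06 for Smoc2 and from -3.57 to -3.00 for Ecm2.

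Within the libraries with and without Y-linked reads the changes were -5.26 and -4.48 for Fn1, -4.95 and -2.04 for Tnc, -1.51 and -2.70 for Tnxb, and -1.86 and -3.38 for Sparcl1, a split chosen after seeing the data. Smoc2 had a wider gap, -6.81 and -10.09, which rests on the 0 of mfn2-/- replicate 4 and was not called (interaction 3.29, SE 1.68, limma adjusted p = 0.475).

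Of all genes, 1217 were called (469 higher, 748 lower). Library weights gave 3037 (1398 and 1639) and no intensity trend 633 (113 higher). Without 1 library the count ran from 670 to 1307 (235 to 470 higher, 435 to 837 lower), lowest without wild-type replicate 3. Receptors called higher went to 1 without a filter or without the trend, and to 1 to 2 without 1 library. Receptors called lower went to 7 with a pseudocount of 10, 2 without the trend, 9 with library weights and 2 to 6 without 1 library. Without the trend 0 processing partners were higher. Without 1 library, tenocyte markers called lower ran from 7 to 8 and stem cell markers called lower from 0 to 1. Mural markers called higher ran from 0 to 1, and Schwann markers called higher from 0 to 1. Mfn2 passed only with library weights (-0.87, adjusted p = 0.0099). The causes were not tested. The replicate number as a block gave 1043 calls, with 9 members lower, and changed no member's call. Same-numbered libraries of the 2 genotypes did not deviate together (correlations -0.11 to 0.038). These correlations cannot show whether the numbers carry a batch, since within each group the Y-linked reads follow the pairs of replicate numbers.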
